A study of Apostichopus japonicus with 12 samples.

Results

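Cytosolic ribosomal proteins were followed in intestine of Apostichopus japonicus, a sea cucumber (an echinoderm) that feeds on sediment. The 67 gene models were those whose deposited description names a 40S or 60S ribosomal protein and does not mention mitochondria, a kinase or biogenesis, out of 30221 models. Of them 29 belong to the small (40S) and 38 to the large (60S) subunit. They carry 45 distinct names, and 1 is described as a 40S ribosomal protein with no number. The list is not a complete ribosome, because 23 further models are described as ribosomal proteins without a subunit, and no member was named P0, P1, P2, S6, S30 or L40.

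Ribosomal proteins fold around ribosomal RNA, the 40S subunit reading the message and the 60S subunit joining amino acids and passing the new chain out through a tunnel. A cell needs the proteins in near equal numbers, so their messages are usually abundant and move together. In vertebrates, translation of these messages depends on target of rapamycin signalling, and in budding yeast their levels fall after heat shock.

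The study compared 4 groups of 3 animals, with messenger RNA sequenced from each animal on its own. Controls stayed at 18 °C and carry no time label. The heated animals were brought up at 2 °C per hour and then held at 26 °C for 6 h or 48 h, or at 30 °C for 6 h. The 3 heated groups were all set against the same controls, so these comparisons share libraries. Hold times were counted from reaching the target, and the warming to 30 °C was longer than that to 26 °C.

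The values are the authors' FPKM, fragments per kilobase of gene length scaled for depth. Column sums ran from 562397 to 3014690 FPKM, so each level is given both as FPKM and as a percent of its column. The recovered reads on genes numbered 1788303 to 3956056 per library, of which 389131 to 731277 fell on the 67 models. Cytosolic heat shock proteins (40 models) took 0.0499% to 0.210% of FPKM in controls and 8.87% to 37.3% at 30 °C, and 12887 to 19818 genes held a read across the control and 6 h libraries. The marker list for gut epithelium and digestive gland (52 models, 39 of them tested and 3 at 0 in every library) held 0.0624% to 0.234% of FPKM in controls and 0.0317% to 0.334% at 30 °C. In tissue RNA, fewer cells of a kind and less message per cell cannot be told apart.

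Ribosomal proteins were among the most abundant messages. By mean FPKM over the 12 libraries, 22 of the 50 highest and 42 of the 100 highest gene models were members, and 52 members averaged at least 1000 FPKM. Their coding lengths were short, with a median of 507 bases against 924 over all models. In controls they summed to 479578, 314124 and 110151 FPKM in animals 1 to 3. After 6 h at 26 °C the sums were 407133, 286498 and 208079 FPKM, and after 48 h they were 511404, 150953 and 130843 FPKM. At 30 °C they were 567240, 310110 and 861316 FPKM. Every group overlapped the controls, and the controls alone differed 4.35-fold.

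As a share of each column the spread was narrower. The members held 31.2%, 31.1% and 19.6% of FPKM in the control animals, a mean of 27.3% ± 6.69 (SD, n = 3). They held 29.3%, 25.6% and 20.8% after 6 h at 26 °C (25.2% ± 4.28) and 35.3%, 21.0% and 22.6% after 48 h (26.3% ± 7.87). At 30 °C they held 27.3%, 14.5% and 28.6% (23.5% ± 7.76). The 4 group means lay within 1 SD of each other, and the lowest value of all, 14.5%, came from the 30 °C animal with the highest heat shock share, 37.3%. With heat shock proteins taken out of the column, the 30 °C animals held 33.8%, 23.2% and 31.4%, a mean of 29.4% ± 5.55, against 27.3% ± 6.68 in controls. The order of control and 30 °C therefore turned with the denominator, and in each case the groups overlapped.

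**Figure D1:**
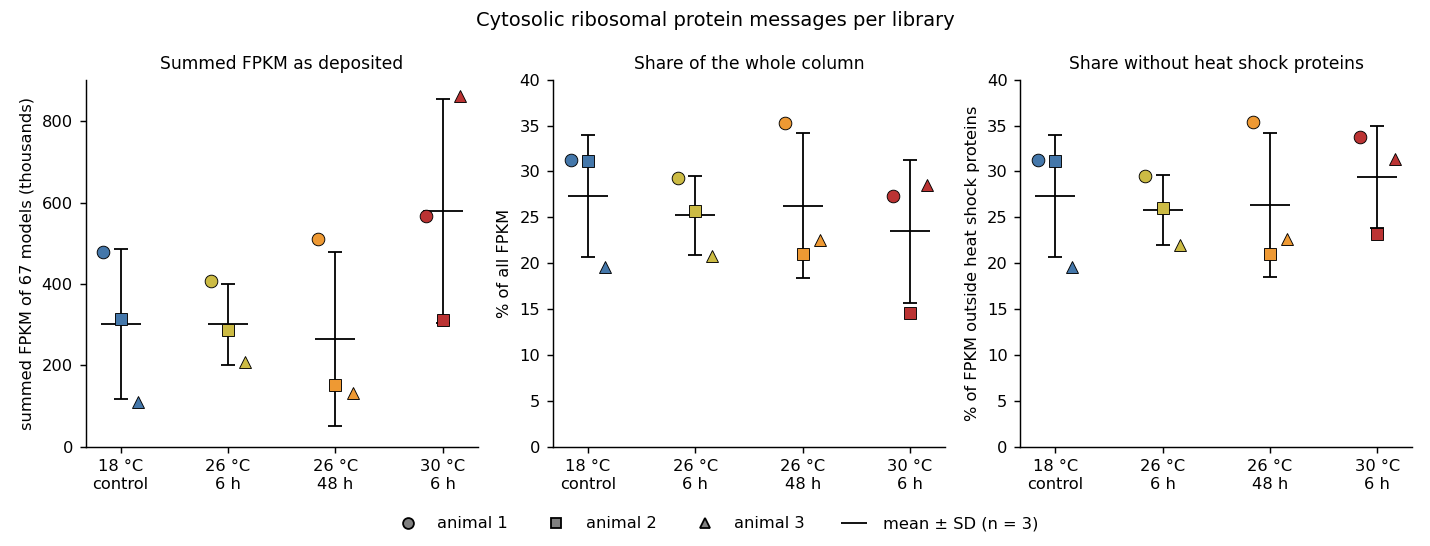
Summed level of the 67 cytosolic ribosomal protein models in each library, as deposited FPKM (left), as percent of all FPKM (middle) and as percent of the FPKM outside heat shock proteins (right). Points are animals and bars are the mean ± SD of 3 animals. The 30 °C mean is highest on the left at 579555 FPKM, lowest in the middle at 23.5% and highest again on the right at 29.4%, and its animals overlap the controls in all 3 panels.

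The controls were themselves split. Control animal 3 had all 67 models below their own 12-library mean on the log2 scale of FPKM, while control animal 1 had 64 above it. Of all genes tested, 50.2% and 46.5% lay above theirs in these animals, in that order. The 48 h animals were split likewise, with 54, 7 and 1 models above their mean, against 46.7%, 52.3% and 53.0% of all genes. On this scale nearly the whole family stood high or low together within such a library. With a common sum for every column, 13 and 55 models lay above in control animals 3 and 1, against 75.2% and 35.4% of all genes. In the 48 h animals 52, 23 and 26 did, against 38.9%, 72.4% and 79.1%. Control animal 3 and 48 h animal 3 also had 19818 and 19887 genes with a read, among the highest counts, and the lowest column sums (562397 and 580148 FPKM). The part of depth and scaling in this split was not tested. Between animals of a group, pooled over the 4 groups, the median SD of a member was 0.976 on the log2 FPKM scale. For all genes tested it was 0.867. Once every column was brought to a common sum the values were 0.510 and 0.980. For the 43 other genes at or above the members' median level it was 1.02 and 0.624.

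No ribosomal protein model passed the test in any comparison. The test was limma on log2(FPKM + 1) over the 18729 genes that averaged 0.5 FPKM or more, with Benjamini-Hochberg adjustment and a threshold of 0.05, and all 67 models entered it. After 6 h at 26 °C, 0 of 67 were called where 0.0641% of all genes were. After 48 h it was 0 of 67 against 0.0%, and at 30 °C 0 of 67 against 0.651%. Between 30 °C and 26 °C at 6 h it was 0 of 67 against 0.246%, and between 48 h and 6 h at 26 °C 0 of 67 against 0.0107%. The F test over the 4 groups called 0 against 0.555%.

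At an unadjusted p under 0.05 the same test counted 0 members after 6 h at 26 °C (8.06% of all genes) and 1 after 48 h (4.55%). It counted 10 at 30 °C (14.9% of the members against 10.4% of all genes), all of them upward. Between 30 °C and 26 °C it counted 6 (8.96% against 11.7%) and between 48 h and 6 h 3 (4.48% against 7.01%), and the F test counted 7 (10.4% of the members and 10.4% of all genes). On the recovered reads, limma's voom also called 0 members, where it called 0.0801%, 0.0%, 0.833%, 0.0587% and 0.016% of all genes in the 5 comparisons in that order and 0.577% in the F test. It counted 1, 1, 11, 5 and 4 members and 7 in the F test at an unadjusted p under 0.05, against 9.93%, 6.32%, 11.3%, 10.7%, 8.69% and 12.2% of all genes. The median 95% interval of a member's log2 change reached 1.62 to either side, so smaller changes could not be resolved with 3 animals a group.

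At 30 °C the members' median log2 change was 0.97 on the deposited FPKM, with 56 of 67 above 0, but it was -0.34 with 13 above 0 once columns had a common sum, and -0.35 with quantile scaling. The median of all genes tested was -0.07 on FPKM, -0.85 with the common sum and -0.06 with quantile scaling. The members therefore lay above the median gene on the first 2 scales and below it on the third. Taking heat shock proteins out of the common sum put the members at 0.03 and all genes at -0.62. The same held against 26 °C at 6 h, where the median was 0.84 on FPKM and -0.19 with the common sum.

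At 26 °C the medians were smaller. After 6 h the members' median was 0.19 on FPKM and -0.09 with the common sum, against -0.08 and -0.29 over all genes. After 48 h it was -0.30 and -0.12, against 0.03 and 0.16, so here the members lay below the median gene on both scales. With the 48 h animals set against the 6 h animals the medians were -0.45 and 0.00, against 0.12 and 0.46. The 6 h median was -0.49 without control animal 3 and -0.03 without 26 °C 6 h animal 1. The 48 h median was 0.22 without control animal 1 and 0.11 without 48 h animal 3.

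**Figure D2:**
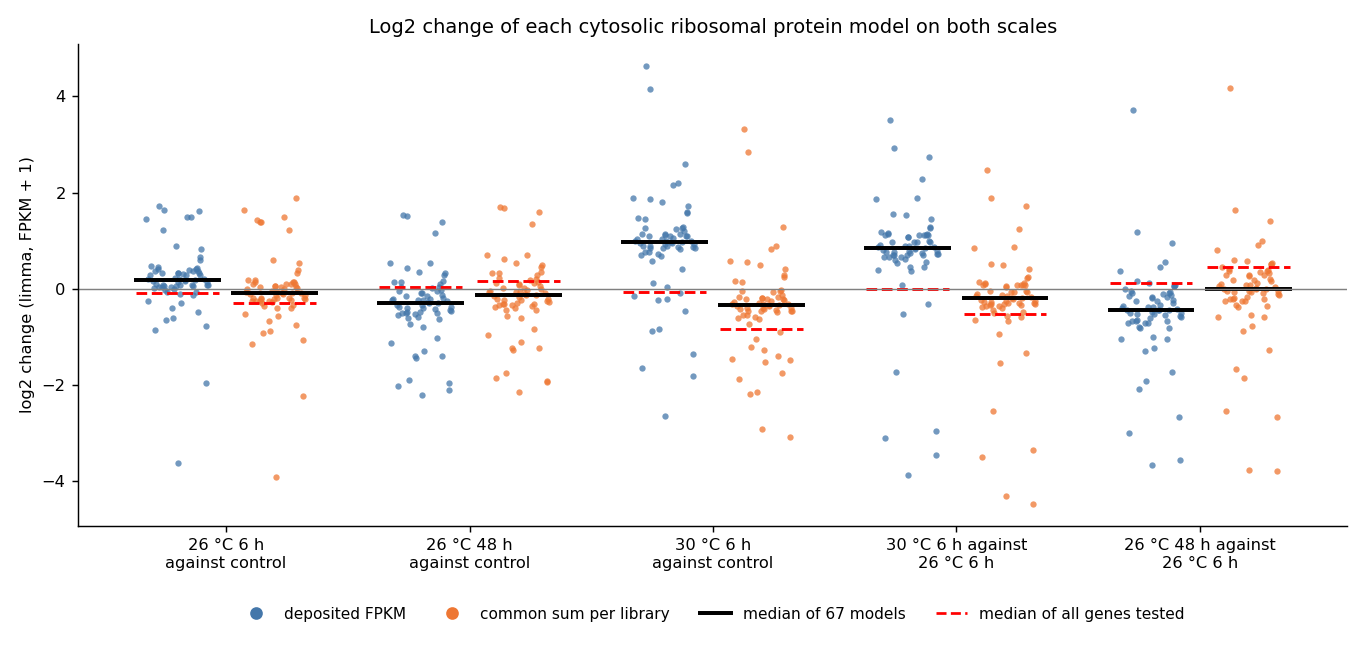
Log2 change of each of the 67 models (points) in the 5 comparisons, from limma on deposited FPKM (blue) and on columns brought to a common sum (orange). Black bars are the members' medians and red dashes the medians of all genes tested. At 30 °C against control the black bar moves from 0.97 to -0.34 and the red dash from -0.07 to -0.85.

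The median change at 30 °C was 0.92 for 40S and 0.98 for 60S models on FPKM, and -0.39 and -0.33 with the common sum. On FPKM it was 0.09 and 0.25 after 6 h at 26 °C, and -0.23 and -0.38 after 48 h. From 6 h to 48 h it was 0.12 for 40S and -0.05 for 60S models with the common sum, and -0.34 and -0.51 on FPKM. A ratio of 40S to 60S within a library does not depend on the column's scaling. The 40S models made up 39.9%, 40.2% and 40.4% of the members' FPKM in controls. They made up 38.8%, 38.98% and 38.7% after 6 h at 26 °C and 38.1%, 38.9% and 38.1% at 30 °C, every animal below every control. After 48 h they made up 43.7%, 40.3% and 39.9%, overlapping the controls. The means differed by little, 40.2% ± 0.254 in controls, 38.8% ± 0.131 after 6 h at 26 °C and 38.4% ± 0.464 at 30 °C (SD, n = 3). Counted in reads rather than FPKM, the 40S share was 37.7% ± 0.239, 37.3% ± 0.214 and 36.8% ± 0.268 in the same groups, and all 26 °C 6 h animals then lay below 37.5%, the lowest control. A higher share of a single 60S model lowers the 40S share. The 60S model L35 BSL78_17330 took 2.14% ± 0.732 of the members' FPKM in controls. It took 3.56% ± 1.35 after 6 h at 26 °C and 4.45% ± 1.03 at 30 °C. The 40S share without this model was not calculated.

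The 6 models with the highest mean FPKM held 23.5% of the members' sum. They were L18 (BSL78_23905), L27a (BSL78_05097), the 40S protein with no number (BSL78_05383), L31 (BSL78_10790), which in other eukaryotes sits near the tunnel exit, S26 (BSL78_03594), which contacts the message where it leaves the 40S subunit, and S3a (BSL78_13275). Only 9 genes of the whole table stood higher than L18. It measured 25841, 16495 and 5370 FPKM in controls and 21674, 14637 and 9856 FPKM after 6 h at 26 °C. After 48 h it measured 23613, 6091 and 5050 FPKM, and at 30 °C 25493, 13254 and 40406 FPKM. The groups overlapped, and its log2 change at 30 °C was 0.86 (SE 0.76, adjusted p = 0.739 by limma). The other 5 of these models differed 6.64-fold to 12.1-fold between their lowest and highest library. The ranking was steadier than the level: of the 20 highest members in controls, 17 were among the 20 highest in each 26 °C group and 18 were at 30 °C.

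**Figure D3:**
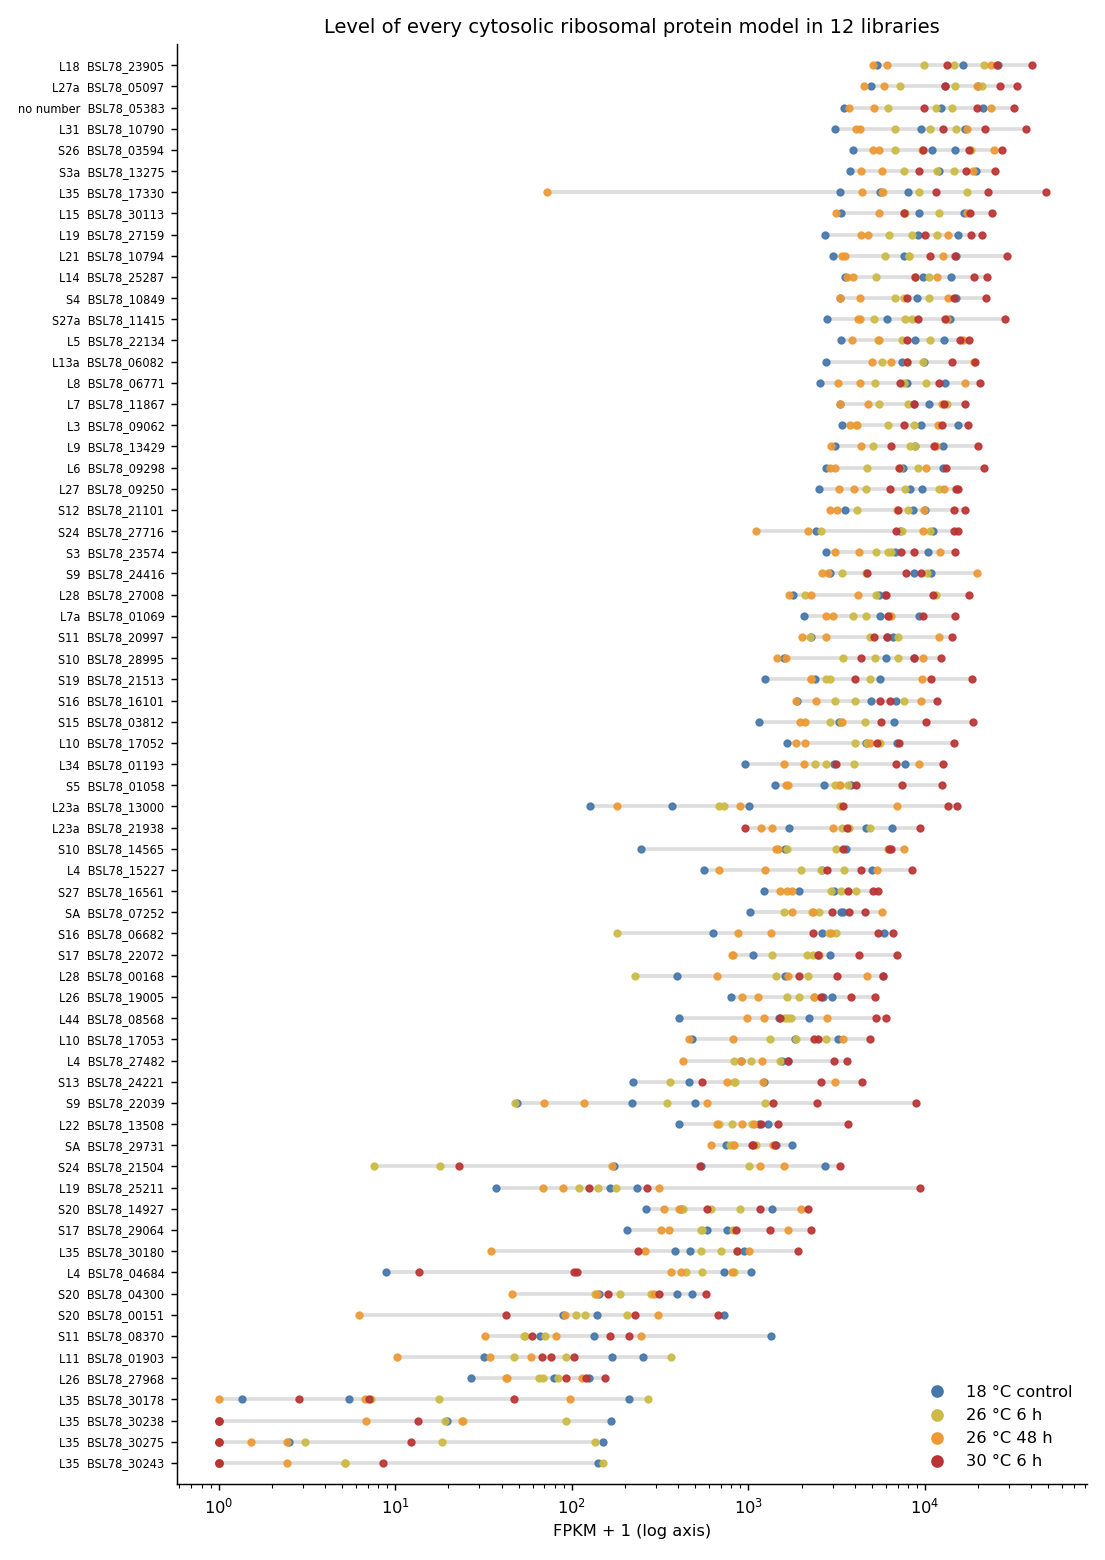
FPKM + 1 (log axis) of all 67 models, sorted by mean, with each of the 12 libraries as a point coloured by group and a grey line from the lowest to the highest. The groups are mixed in the upper models, where L18 spans 5050 to 40406 FPKM, and the widest lines belong to models that share a name with another model, such as S24 BSL78_21504 from 6.54 to 3319 FPKM.

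Set against the members' own sum, which takes out the movement of the whole family, single proteins differed by less. On that scale, chosen after the values were seen, the members add up to the same total in every library, so higher and lower shares balance. Other genes are not held to a total. Their median log2 change, taken over all genes tested, was -0.72 at 30 °C, 0.21 after 48 h and -0.24 after 6 h at 26 °C. The members' medians were -0.09, -0.06 and 0.002. The shares of all genes that follow move with this scaling and are not a like background for the members. At 30 °C 10 members (14.9%) lay above every control and 8 (11.9%) below, where 1.53% and 14.7% of all genes did. After 48 h at 26 °C 9 (13.4%) lay above and 9 (13.4%) below, against 3.8% and 1.6%. After 6 h at 26 °C 2 (2.99%) lay above and 4 (5.97%) below, against 2.12% and 5.48%. Limma called 0 members on this scale in these 3 comparisons, against 0.117%, 0.00534% and 0.016% of all genes. At an unadjusted p under 0.05 it counted 4, 1 and 2 members, against 10.2%, 3.57% and 5.09%.

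Among the highest models, S3a took 4.06%, 3.83% and 3.42% of the members' FPKM in controls and 3.01%, 2.96% and 2.91% at 30 °C. L31 took 3.495%, 3.02% and 2.81% in controls and 3.84%, 4.10% and 4.34% at 30 °C. In both the 30 °C animals lay outside the range of the controls, S3a below and L31 above. L18 took 5.39%, 5.25% and 4.88% in controls, 4.62%, 4.04% and 3.86% after 48 h at 26 °C and 4.49%, 4.27% and 4.69% at 30 °C, below every control in both. L3 (BSL78_09062), a protein near the peptide-forming centre that is named here after its values were seen, took 3.21%, 3.00% and 3.09% in controls. It took 2.14%, 2.16% and 1.94% after 6 h at 26 °C, 2.33%, 2.74% and 2.86% after 48 h and 2.19%, 2.44% and 2.02% at 30 °C, below every control in all 3 heated groups. Its log2 change on this scale was -0.58 (SE 0.66, adjusted p = 1) after 6 h at 26 °C and -0.49 (SE 0.66, adjusted p = 0.773 by limma) at 30 °C. Neither was called. Limma draws each gene's SE toward the spread of all genes tested, so this SE is not the spread of L3 between its own animals. The lack of calls among members on this scale carries the same limit.

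**Figure D4:**
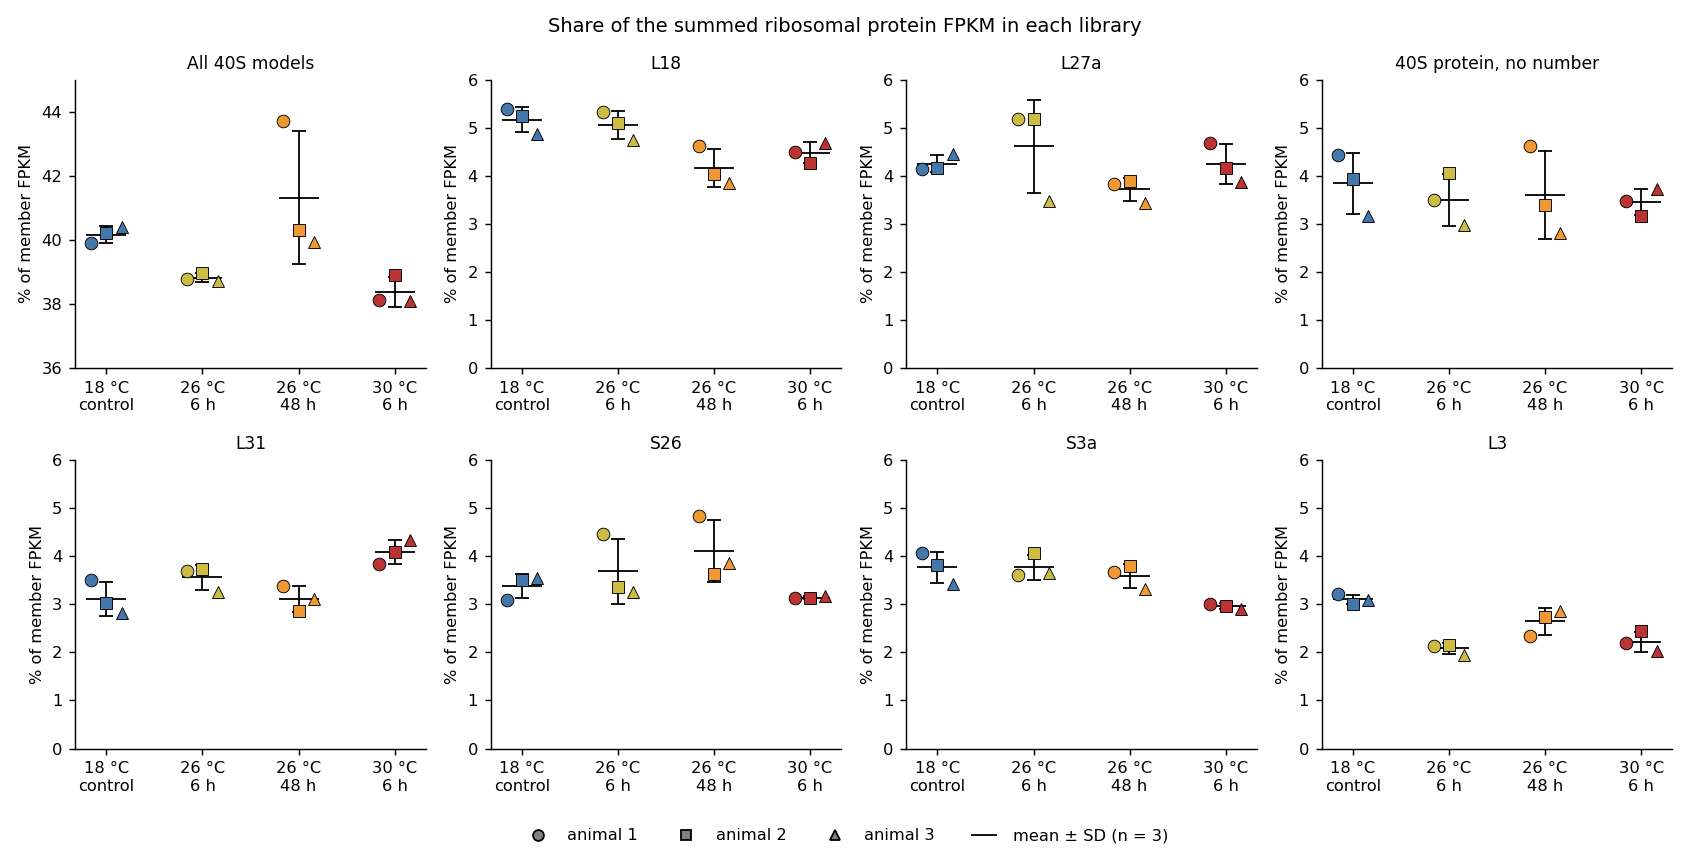
Percent of the members' summed FPKM taken by all 40S models (axis from 36 to 45) and by 7 single models (axes from 0 to 6), with animals as points and mean ± SD of 3 animals as bars. S3a and L3 lie below every control at 30 °C and L31 above, and the 40S share lies below every control in both 6 h groups.

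The widest differences came from models that share a name. There were 15 such names with 36 models, and how reads were divided between models of a name is not given in the sources used here, so the level of each model is uncertain. Names were compared among the 67 members only. The 23 models described without a subunit were not searched for further copies. Taken as a share of the members' FPKM, a model with a name of its own had a median coefficient of variation of 15.6% over the 12 libraries, and a model of a shared name 39.1%. Summing the models of each shared name brought the median to 18.0%, and for 14 of the 15 names the sum varied less than every one of its models. A sum of models that do not move together tends to vary less than they do. This count therefore does not show how reads were divided. In 7 names (L23a, L28, L35, L4, S16, S24 and S9) more than 1 model was the leading copy in some library.

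L23a, which lies at the exit of the peptide tunnel and is a docking point for factors that meet the new chain, had the largest change of any member at 30 °C. Its model BSL78_13000 (scaffold MRZV01000433.1, 191099 to 194825, plus strand, coding length 522) measured 366, 1004 and 125 FPKM in controls and 15268, 3440 and 13550 FPKM at 30 °C. All 30 °C animals lay above all controls. After 6 h at 26 °C it measured 3281, 685 and 728 FPKM and after 48 h 6923, 178 and 894 FPKM, overlapping the controls in both. Its log2 change at 30 °C was 4.63 (SE 1.18, 95% interval 2.09 to 7.18, adjusted p = 0.127 by limma). It kept its sign in each of the 23 other settings, from 3.19 to 5.38, with adjusted p = 0.0634 at the smallest.

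The second L23a model, BSL78_21938, was lowest in the animal where the first was highest. It measured 4605, 6518 and 1697 FPKM in controls and 950, 3615 and 9421 FPKM at 30 °C, a log2 change of -0.22 (SE 0.79, adjusted p = 0.958 by limma). BSL78_13000 made up 7.37%, 13.3% and 6.86% of L23a in controls and 94.1%, 48.8% and 59.0% at 30 °C, but also 85.4% in 48 h animal 1. In 26 °C 6 h animal 1, BSL78_13000 and BSL78_21938 took 0.806% and 0.912% of the members' FPKM. In 48 h animal 3 they took 0.683% and 1.04%, and in 30 °C animal 2 1.11% and 1.17%. Both models together took 1.04%, 2.39% and 1.65% of the members' FPKM in controls and 2.86%, 2.28% and 2.67% at 30 °C, which overlap.

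S9, a 40S protein near the channel where the message enters, showed a like split. Its minor model BSL78_22039 (scaffold MRZV01001052.1, 76139 to 79100, minus strand, coding length 576) measured 494, 217 and 47.7 FPKM in controls and 2449, 1380 and 8860 FPKM at 30 °C. The groups did not overlap, and the log2 change was 4.16 (SE 1.21, 95% interval 1.56 to 6.76, adjusted p = 0.206 by limma). Its share of S9 was 4.37%, 2.45% and 1.61% in controls and 20.6%, 22.8% and 53.3% at 30 °C, with 21.2% in 26 °C 6 h animal 2 and 17.04% in 48 h animal 2. The major model BSL78_24416 had a log2 change of 0.11 (SE 0.81, adjusted p = 0.983), and S9 as a whole took 2.36%, 2.81% and 2.68% of the members' FPKM in controls and 2.10%, 1.95% and 1.93% at 30 °C.

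On the deposited FPKM, 8 members (11.9%) lay wholly above the controls at 30 °C and 0 below, against 6.28% and 7.98% of all genes. Besides L23a and S9 they were L35 BSL78_17330, L28 BSL78_27008, S5, S27, L4 BSL78_27482 and S17 BSL78_29064, named after their values were seen. With the common sum, 2 (L23a BSL78_13000 and S9 BSL78_22039) lay above and 6 below, against 1.49% and 24%, so only these 2 lay above on both scales. L19, which forms a bridge to the 40S subunit, had the next largest upward change at 30 °C through its minor model BSL78_25211. That model measured 234, 163 and 36.3 FPKM in controls and 266, 124 and 9308 FPKM at 30 °C, so a single animal carried the log2 change of 2.59 (SE 1.27, adjusted p = 0.512 by limma). Without 30 °C animal 3 the change was 0.70. S10 BSL78_14565 followed with 2.19 (SE 0.94, adjusted p = 0.426 by limma), from 3591, 1617 and 246 FPKM in controls to 6413, 3433 and 6251 FPKM, overlapping.

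The largest downward values at 30 °C belonged to 3 minor L35 models and a minor L4 model. L35 and L4 both line or border the exit tunnel. L4 BSL78_04684 measured 1034, 726 and 7.82 FPKM in controls and 12.6, 102 and 106 FPKM at 30 °C, a log2 change of -1.82 (SE 1.40, adjusted p = 0.695 by limma), and control animal 3 overlapped the heated animals. Without that control the change was -4.03 (adjusted p = 0.0884), and without control animal 1 it was -0.59. Against 26 °C at 6 h, where it measured 828, 440 and 547 FPKM, the groups did not overlap, and the change was -3.46 (SE 1.40, adjusted p = 0.351 by limma). In that comparison 14 members (20.9%) lay wholly above and 2 (2.99%) below on FPKM, against 7.01% and 5.88% of all genes, and with the common sum 0 lay above and 5 (7.46%) below, against 2.19% and 16.5%.

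L35 had 6 models, and BSL78_17330 was the leading one in 11 of the 12 libraries. It ran from 71.5 FPKM in 48 h animal 2 to 48463 FPKM in 30 °C animal 3. The 4 lowest members of all were the L35 models BSL78_30178, BSL78_30238, BSL78_30275 and BSL78_30243, each at 0 in at least 1 library, where a floor of 3 reads allowed 1.07 to 5.59 FPKM. All 4 were highest in control animal 1 or 26 °C 6 h animal 1, and BSL78_30178 also reached 97.2 FPKM in 48 h animal 2. Their log2 changes at 30 °C were -2.64 (SE 1.63) for BSL78_30238, -1.64 (SE 1.68) for BSL78_30275 and -1.35 (SE 1.73) for BSL78_30243, and none was called by limma. The last 2 were positive, at 0.55 and 1.03, without control animal 1.

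After 6 h at 26 °C the largest downward value was in S24, a 40S protein that is mutated in some people with Diamond-Blackfan anaemia. Its minor model BSL78_21504 measured 2714, 540 and 171 FPKM in controls and 17.02, 6.54 and 1009 FPKM after 6 h, a log2 change of -3.62 (SE 1.89, adjusted p = 0.666 by limma). Animal 3 of the heated group lay among the controls. At 30 °C the model measured 22.1, 531 and 3319 FPKM, where animal 1 was, like the 2 low animals at 26 °C, below every control and the others lay within or above the controls. The other model, BSL78_27716, held 71.7% to 99.9% of S24 in the 26 °C 6 h animals, and the sum of both ranged from 1.72% to 2.89% of the members' FPKM over the 12 libraries.

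The next downward values at 6 h were -1.95 (SE 1.01) in S11 BSL78_08370, -0.86 (SE 1.06) in S16 BSL78_06682, whose protein reaches the P-site transfer RNA, and -0.78 (SE 1.05) in L28 BSL78_00168. Without control animal 1, at 1349 FPKM, the S11 value was -0.67. The S16 value was 0.49 without heated animal 3, at 179 FPKM, and -0.13 without control animal 1. That of L28 was 0.20 without heated animal 1, at 228 FPKM, and 0.17 without control animal 1. The upward values were 1.71 (SE 1.18) in L23a BSL78_13000, 1.64 (SE 1.40) in L4 BSL78_04684, 1.62 (SE 1.73) in L35 BSL78_30243 and 1.495 (SE 0.94) in S10 BSL78_14565. In this comparison 0 members lay wholly above or below the controls on FPKM, against 4.81% and 7.15% of all genes, and with the common sum 0 above and 4 (5.97%) below, against 2.43% and 7.65%. The smallest adjusted p was 0.660, for S11 BSL78_08370.

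After 48 h at 26 °C the lowest unadjusted p was in L11 (BSL78_01903), which joins the 5S RNA and L5 and in mammals binds the p53 inhibitor Mdm2 when assembly stalls. It measured 167, 252 and 30.6 FPKM in controls and 33.2, 57.4 and 9.23 FPKM after 48 h, with control animal 3 among the heated animals. Its log2 change was -2.01 (SE 0.92, 95% interval -3.98 to -0.04, unadjusted p = 0.0457, adjusted p = 1 by limma), and from 6 h to 48 h it was -2.09 (SE 0.92, adjusted p = 0.679). After 6 h it measured 365, 91.2 and 45.8 FPKM and at 30 °C 101, 66.4 and 74.7 FPKM. Outside the names shared among members, L11 was the lowest member and the most variable, with a coefficient of variation of 83.5% of its share.

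The other downward values at 48 h were in L35: -2.22 (SE 1.68) for BSL78_30275, -2.11 (SE 1.27) for BSL78_17330 and -1.95 (SE 1.73) for BSL78_30243. Upward, S13 (BSL78_24221) had a log2 change of 1.51 (SE 0.86, adjusted p = 1 by limma), from 1224, 458 and 220 FPKM to 3090, 1216 and 757 FPKM, overlapping on FPKM. As a share of the members' FPKM it went from 0.255%, 0.146% and 0.200% to 0.604%, 0.805% and 0.579%, without overlap. L23a BSL78_13000 (1.53, SE 1.18), L4 BSL78_04684 (1.39, SE 1.40) and S10 BSL78_14565 (1.16, SE 0.94) were the remaining upward models. On FPKM 0 members lay wholly above or below the controls, against 5.84% and 4.85% of all genes, and with the common sum 3 (4.48%) lay above and 2 (2.99%) below, against 5.17% and 2.26%.

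From 6 h to 48 h at 26 °C, 0 members lay wholly above and 5 (7.46%) below on FPKM, against 7.87% and 4.76% of all genes. The 5 were L35 BSL78_17330, BSL78_30275 and BSL78_30243, L23a BSL78_21938 and S27. With the common sum 5 lay above and 5 below, against 10.6% and 1.85%, and SA BSL78_07252 and BSL78_29731, S13, L13a and L44 were those above. The members below on both scales were S27, L35 BSL78_30275 and L35 BSL78_30243, all named after their values were seen.

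Members with a second role outside the ribosome were also followed. SA, known in vertebrates as the laminin receptor, had 2 models, which together took 1.02%, 1.64% and 1.61% of the members' FPKM in controls. They took 0.834%, 0.841% and 1.59% after 6 h at 26 °C, 1.39%, 2.08% and 1.81% after 48 h and 1.06%, 1.30% and 0.555% at 30 °C. The ranges of control and each heated group overlapped. BSL78_29731 measured 1440, 1772 and 748 FPKM in controls and 1419, 1063 and 1053 FPKM at 30 °C, a log2 change of -0.09 on FPKM and -1.40 with the common sum (SE 0.53 and 0.59, adjusted p = 0.976 and 0.235 by limma). S27a (BSL78_11415), made as a fusion with ubiquitin, measured 13760, 6059 and 2795 FPKM in controls and 12941, 9158 and 28520 FPKM at 30 °C, a log2 change of 1.29 (SE 0.71, adjusted p = 0.568).

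S3 (BSL78_23574), which lines the message entry and in mammals takes part in DNA repair, and L5 (BSL78_22134), the partner of L11 on 5S RNA, stayed near the other members. Their log2 changes at 30 °C were 0.76 (SE 0.65) and 0.85 (SE 0.69) on FPKM and -0.55 and -0.46 with the common sum. The L5 model stood above the L11 model, at 12868, 8750 and 3340 FPKM in controls against 167, 252 and 30.6 FPKM. FPKM is a level per gene length, so the levels of these 2 models can be set side by side. Further copies of L5 or L11 outside the members were not looked for, so they are not levels of the whole protein's message.

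The remaining shared names kept a stable leading copy. L10, which completes the 60S subunit late in assembly, had 2 neighbouring models on a scaffold, 18927 bases apart with no model between them and on the same strand. BSL78_17052 held 58.9% to 80.1% of L10 in the 12 libraries. In L26 the model BSL78_19005 held 95.4% to 97.3%, in S17 BSL78_22072 held 59.9% to 83.8% and in S11 BSL78_20997 held 81.9% to 99.3%. S20 had 3 models, of which BSL78_14927 led in every library with 43.9% to 86.9%, and S10 BSL78_28995 led S10 in every library with 50.2% to 86.6%. In L19 BSL78_27159 held 69.3% to 98.8%, and its lowest share was in 30 °C animal 3. Among the names whose leader changed, L28 BSL78_27008 held 47.0% to 98.1%, S16 BSL78_16101 held 48.8% to 95.7% and L4 BSL78_15227 held 35% to 76.9%.

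**Figure D5:**
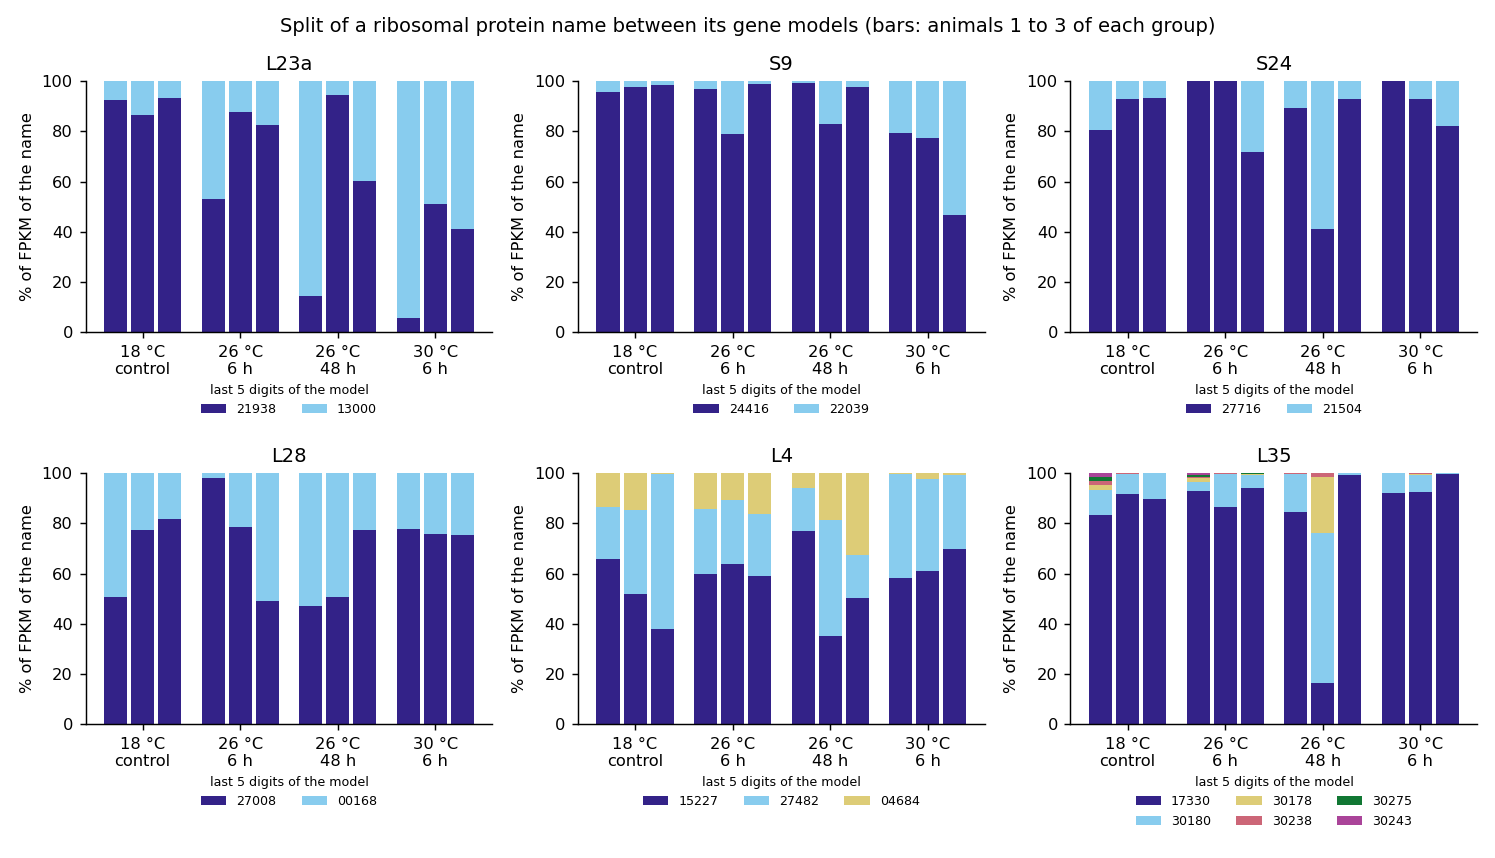
Percent of a name's FPKM held by each of its gene models in every library, for L23a, S9, S24, L28, L4 and L35. In L23a the model BSL78_13000 holds 7.37%, 13.3% and 6.86% in controls. At 30 °C it holds 94.1%, 48.8% and 59.0%, and it also leads in 48 h animal 1. In S9 the share of the minor model likewise lies above every control in each 30 °C animal. In the remaining names the split varies between animals of the same group.

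Genes that serve the ribosome gave no call either, under the same limma test. The 23 ribosomal proteins described without a subunit had a median log2 change of 1.13 at 30 °C on FPKM and -0.18 with the common sum, close to the members' 0.97 and -0.34. Mitochondrial ribosomal proteins (95 of 96 tested) stood at 0.05 and -1.04 and translation initiation factors (60 of 62) at -0.05 and -1.04. Elongation and termination factors (10 of 10) stood at 0.67 and -0.45. For ribosome assembly factors (52 of 60) the medians were -0.25 and -1.16, for RNA polymerase I subunits (9 of 11) -0.52 and -0.98, and for the target of rapamycin and related signalling genes (26 of 36) -0.39 and -1.05. Over all genes the medians were -0.07 and -0.85. In each of these lists 0 rose and 0 fell in any of the 5 comparisons on FPKM, while of the 35 heat shock proteins tested 19 rose at 30 °C and 4 after 6 h at 26 °C.

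The heat shock messages share the column with the ribosomal proteins. HSP26 BSL78_13662, a small chaperone, rose from 24.8 ± 26.5 to 133567 ± 78329 FPKM at 30 °C (SD, n = 3), more than the 40406 FPKM of L18 at its highest. HSP70 BSL78_02917 rose from 6.64 ± 9.06 to 31158 ± 5987 FPKM. At 30 °C both rose by limma, with log2 changes of 13.01 and 12.76 (adjusted p = 0.000118 and 0.000130).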

How the data were processed

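Messenger RNA of single intestines was made into libraries and sequenced on an Illumina HiSeq, per the labels' protocols. The authors deposited FPKM values for 30221 gene models, with description, scaffold, position and length, per the file headers. The aligner, counting tool and genome build are not given in the sources used here, nor is any use of strand. Gene names are those of the file; the reference gene table matched 0 identifiers.

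Multiplied by length, 100% of the FPKM values were whole multiples of a step particular to their library, within 0.05 of a read. Dividing by it gave the recovered reads. Of all model lengths 94.0% are multiples of 3, hence coding length. Values plus 1 were put on the log2 scale and tested two-sided with limma (version 3.58.1, R 4.3.3), with a mean per group over 12 libraries, 8 residual and 5.65 prior degrees of freedom, and Benjamini-Hochberg adjustment over the 18729 genes tested. Limma was also run on simulated data whose columns had equal depth. Those data lack the column differences found here, so that run does not bear on the lack of calls among members. Log2 changes understate those of low genes. Common-sum values are shares of a column times the mean column sum.

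The members, lists and tests were chosen with earlier results of these data known. Members are named for the 4 largest changes in each direction per heated group, the 6 highest and 4 lowest levels, a special role, or a shared name. Alternatives were other scalings, pseudocounts and filters, library weights, a replicate block, fits of only the compared groups, voom on the recovered reads and leaving out each library.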

Additional observations from a re-analysis of the deposited data

How the results depend on the processing

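Calls of 0 members held in all 5 comparisons and the F test under each of 23 other settings (no F test for fits of only the compared groups). With a common sum the members' median SD between animals was 0.510, against 0.980 for all genes tested. Limma draws each SE toward the spread of all genes, so the lack of calls on that scale is limited as on the member sum. Rescaling to the member sum and adding the 23 models without a subunit were chosen after seeing the data. The members' median at 30 °C against control became -0.35 with quantile scaling, -0.34 with a common sum and -0.093 with the member sum. Against 26 °C at 6 h it became 0.14 with the common sum without heat shock proteins, -0.20 with quantile scaling, -0.19 with a common sum and -0.038 with the member sum. The cause was not tested.

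Leaving out 1 library at a time gave medians of -0.49 to 0.68 after 6 h at 26 °C, -0.95 to 0.22 after 48 h, 0.36 to 1.39 at 30 °C, 0.55 to 1.18 for 30 °C against 26 °C and -1.01 to -0.07 for 48 h against 6 h. Group shares of FPKM ran from 25.3% to 31.2% in controls, 23.2% to 27.5% after 6 h, 21.8% to 28.9% after 48 h and 20.9% to 27.9% at 30 °C. The 40S shares ran from 40.1% to 40.3%, 38.8% to 38.9%, 40.1% to 42.0% and 38.1% to 38.5%.

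With the models lacking a subunit the 4 shares were 37.4%, 34.4%, 36% and 32.1% in the same order. Of the recovered reads, the members alone held 20.8%, 17.5%, 21.3% and 17.9% in that order. The 40S shares of reads were 37.7%, 37.3%, 38.4% and 36.8%. Leaving out 1 library turned the sign of 8 log2 changes. After 6 h at 26 °C these were L28 BSL78_00168 (-1.76 to 0.20; 0.17 without control animal 1 and 0.20 without 26 °C 6 h animal 1), S16 BSL78_06682 (-1.74 to 0.49, the latter without 26 °C 6 h animal 3), L35 BSL78_30243 (-0.00196 without 26 °C 6 h animal 1, up to 3.99) and L4 BSL78_04684 (-0.57 without control animal 3, up to 2.87). After 48 h they were L35 BSL78_30243 (-3.14 to 0.43, the latter without control animal 1) and L4 BSL78_04684 (-0.81 without control animal 3, up to 2.63). At 30 °C they were L35 BSL78_30243 (-2.54 to 1.03) and BSL78_30275 (-3.07 to 0.55), both positive without control animal 1.

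The replicate number as a block also called 0 members. Same-numbered animals correlated at -0.18 to 0.15 over 18 pairs, 1 of them above 0.1, and 2 of 12 libraries lay closest to their own number, so the numbers do not pair the animals. The whole table had 122 calls at 30 °C (110 up, 12 down) and 60 with a common sum (37 up, 23 down).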
